A study of Mus musculus with 8 samples.

Results

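The solute carrier (SLC) genes encode the membrane transporters that move amino acids, sugars, ions, organic acids and other small molecules across cell membranes. The genes described here were all those whose symbol on the cDNA array has the form of an Slc family number followed by a member number, except Slc34a1, Slc13a1, Slc13a3, Slc22a6, Slc22a7, Slc22a8 and Slc12a1. This gave 170 genes of the 9030 genes named on the array, carried by 231 of its 20749 elements (spotted cDNA clones). The symbol chose the genes, not their ratios, and a gene was given by its brightest element. The symbol also takes in a few products that carry no solute, such as Slc9a3r2, a scaffold protein that binds membrane transporters, and Slc4a1ap, a protein named for binding an anion exchanger.

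In the kidney, SLC proteins of the proximal tubule take back filtered glucose, amino acids, phosphate and carnitine and secrete organic anions and cations, with one set of carriers in the brush border and another in the basolateral membrane. Further along the nephron SLC proteins move salt, urea and bicarbonate. The Slc25 family sits in the inner membrane of mitochondria, the Slc35 family brings nucleotide sugars into the Golgi and the endoplasmic reticulum, and the Slc30 and Slc39 families carry zinc.

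Whole kidney RNA was compared between mutant males of 2 lines with uromodulin-associated kidney disease and wild-type RNA of the same line, hybridised together on two-colour arrays of spotted cDNA clones. The groups were 4 homozygous Umod A227T mice, which the study calls young adult (age label 19, without a unit), and 4 heterozygous Umod C93F mice, which it calls aged (age label 39). The age labels are not the ages in weeks that the study's methods give. Both mutations came from chemical mutagenesis, both lines were kept on the C3HeB/FeJ background, and the mutant uromodulin is made in the thick ascending limb, a segment other than those in which many SLC proteins work. There were 16 arrays, 2 for a mouse with the dyes exchanged, and every array of a line had the same pool of wild-type kidney RNA in its other channel. The pool stands for 1 control sample, so the tests hold no spread among wild-type animals, and line, age, zygosity, pool and hybridisation series cannot be told apart. In whole kidney RNA, fewer cells of a type and less RNA per cell cannot be told apart either.

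Values are log2 ratios of mutant over wild-type pool, the mean of the 2 arrays of a mouse, and are followed by the SD over the 4 mice. The direction is likely rather than settled: the sign was set so that the scans match the processed ratios and the study's own legends, whereas the dye order that the scan names spell out is the opposite and would make lower read higher throughout. An element was tested when, on both arrays of 3 or more mice, at least one of its channels was 2 times its local background or brighter. A gene is called changed at a Benjamini-Hochberg adjusted p (limma) under 0.10 together with a fold over 1.4, and a gene past that p whatever its fold is said to pass the adjusted p alone.

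The C93F arrays were dimmer than the A227T arrays, with 15.3% to 42.3% of spots past the background limit on an array against 56.6% to 73.7%. Therefore 94 of the 170 SLC genes were tested in A227T and 46 in C93F, 34 of them in both lines, 60 in A227T alone and 12 in C93F alone. The other 64 genes were tested in neither line, among them Slc15a2, Slc16a1, Slc20a1, Slc4a1 and Slc6a19.

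The sequences that follow are promoter windows of 250 bases of 4 genes with low ratios in C93F. Slc17a3, Slc22a2 and Slc27a2 had the 3 lowest means of the members in that line, and Slc17a1 is a neighbour of Slc17a3 on one chromosome. The windows of Slc22a2 and Slc27a2 end just before the annotated gene, whereas those of Slc17a3 and Slc17a1 lie inside it. All 4 sequences are taken from RefSeq (GRCm38.p6), whose promoter table holds 133 of the 170 genes. Each is written 5′ to 3′ with any match to 4 searched motifs in capitals.
Slc17a3, chr13:23839184-23839433, plus strand: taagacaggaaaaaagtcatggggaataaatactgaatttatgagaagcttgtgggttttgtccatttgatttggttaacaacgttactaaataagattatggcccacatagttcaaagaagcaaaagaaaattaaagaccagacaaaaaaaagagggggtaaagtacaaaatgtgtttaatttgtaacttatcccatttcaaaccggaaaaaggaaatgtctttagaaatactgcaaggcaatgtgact
Slc17a1, chr13:23868768-23869017, plus strand: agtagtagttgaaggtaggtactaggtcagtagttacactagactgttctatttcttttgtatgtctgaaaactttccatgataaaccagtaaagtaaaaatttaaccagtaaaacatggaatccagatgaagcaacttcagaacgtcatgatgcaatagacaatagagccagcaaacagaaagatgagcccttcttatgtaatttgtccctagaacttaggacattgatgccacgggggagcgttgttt
Slc22a2, chr17:12583939-12584188, plus strand: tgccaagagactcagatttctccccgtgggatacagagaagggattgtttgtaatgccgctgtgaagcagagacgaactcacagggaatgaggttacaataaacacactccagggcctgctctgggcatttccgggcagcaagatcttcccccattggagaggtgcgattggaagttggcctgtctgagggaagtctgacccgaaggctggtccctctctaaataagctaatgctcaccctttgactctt
Slc27a2, chr2:126552774-126553023, plus strand: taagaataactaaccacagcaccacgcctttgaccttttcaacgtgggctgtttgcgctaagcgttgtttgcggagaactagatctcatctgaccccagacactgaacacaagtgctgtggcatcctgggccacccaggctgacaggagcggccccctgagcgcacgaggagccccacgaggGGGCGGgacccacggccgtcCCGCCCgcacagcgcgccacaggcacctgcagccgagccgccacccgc
The motifs, searched on both strands, were an HNF1 half-site (letters GTTAAT), an HNF4 site (CAAAGTCC), a TATA box (TATAAA) and a GC box (GGGCGG). Of these only the GC box occurred in the 4 windows shown, once on each strand in that of Slc27a2. Slc17a1 has another promoter window, also inside the annotated gene, which is not shown and held none of the 4 motifs. Over all 32851 promoter windows of the same length, 6.43% held the HNF1 half-site, 1.2% the HNF4 site, 12.4% the TATA box and 32.7% the GC box. The 183 windows of the 133 SLC genes held them in 2.73%, 2.19%, 6.01% and 54.6% of cases. Of 17 windows of the genes low in C93F, described further on, 0 held the HNF1 half-site, 0 the HNF4 site, 1 the TATA box (Slc45a3) and 10 the GC box. A match is a description of the letters, not a binding site.

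In Umod A227T kidneys most SLC genes stayed close to the wild-type pool. Of 94 tested genes 2 were lower, Slc43a2 and Slc15a5, both of the amino acid and peptide carriers, and 0 were higher. Over all 9211 elements tested, 1.8% were called, 0.793% higher and 1.01% lower (73 and 93 elements, or 141 and 59 with median centring in place of loess). At the adjusted p alone, 4 SLC genes were lower (4.26% of 94, beside 4.53% of all elements) and 2 were higher (2.13%, beside 6.23%). In all, 18 SLC genes had an unadjusted p under 0.05, beside 20.5% of all elements, 28 (29.8%) had one sign in all 4 mice, beside 28.1%, and 51 (54.3%) lay below 0, beside 48.1%. Leaving out mouse 3 or mouse 4 left 1 gene called, leaving out mouse 1 or mouse 2 gave 3, and the 2 higher genes became 0 without mouse 1, 2 or 3 and 1 without mouse 4. The median of the 94 ratios was -0.02, beside 0.01 over all elements, and 83 lay within 0.2 of 0. The SD over the mice was larger than the mean ratio in 67 of the 94 genes.

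In Umod C93F kidneys no SLC gene reached the fold threshold, but 15 of the 46 tested genes were lower at the adjusted p alone and 1 was higher. The lowest were Slc17a3, Slc22a2 and Slc27a2, all of them genes of the proximal tubule. The next lowest was Slc17a7, known from neurons, at -0.33, and Slc6a7, known from the brain, was also among the 15. Over all 3287 elements tested, 1% were called, 0.0304% higher and 0.974% lower, and at the adjusted p alone 14.7% were lower and 9.01% higher. The 15 lower genes were thus 32.6% of the members tested, more than the share among all elements, and the higher gene 2.17%, less than that share. Both directions together made 34.8%, beside 23.7% of all elements. An unadjusted p under 0.05 was found for 19 members, beside 31.7% of all elements, one sign in all 4 mice for 22 (47.8%), beside 39.5%, and a mean below 0 for 26 (56.5%), beside 43.2%. All 15 were below 0 in every one of the 4 mice, with means between -0.47 and -0.12. The same mice gave the adjusted p that chose these genes, so their shared sign is no separate support. The median of the 46 genes was -0.01, beside 0.02 over all elements, since the other genes lay on both sides of 0. With the authors' processed ratios in place of the scans, over 17779 elements, 0 members were lower at the adjusted p. With no filter on dim spots, over 20532 elements, 8 members were lower. Both settings tested far more elements than 3287, so these counts cannot be set beside 15 of 46 as shares. The share of all elements lower at the adjusted p under them is not given here.

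**Figure D1:**
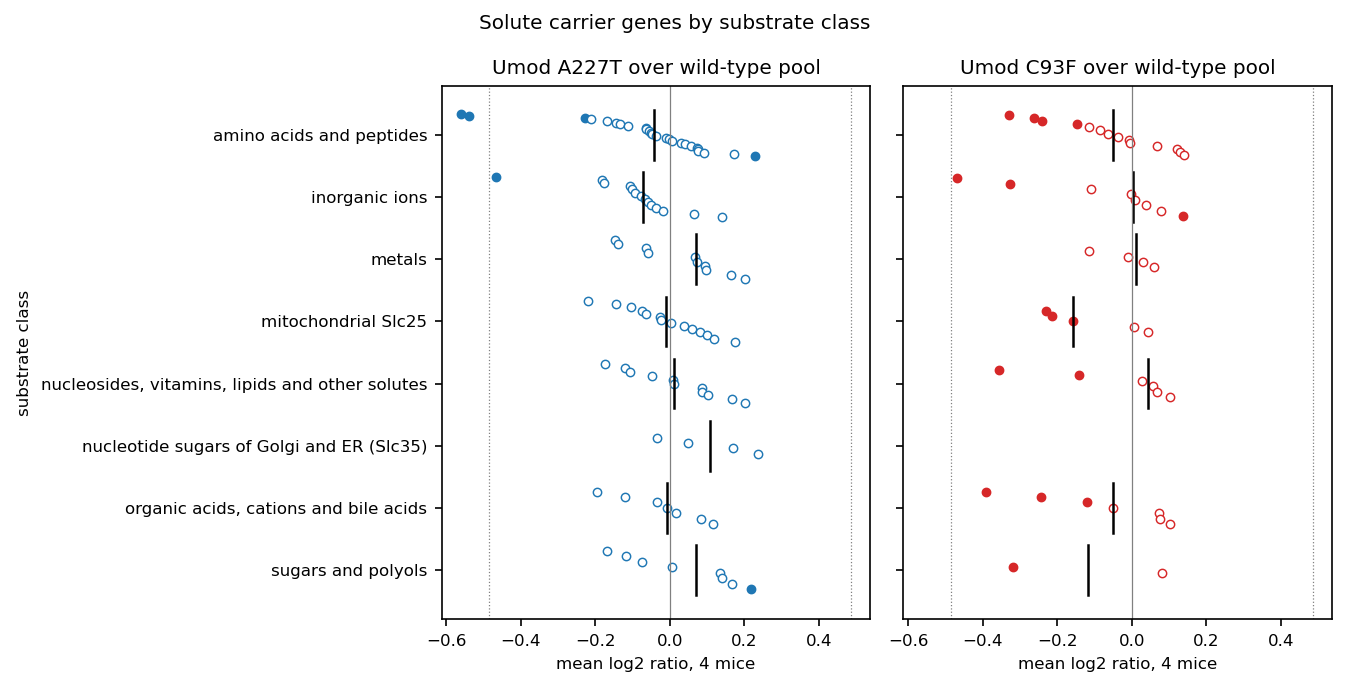
Mean log2 ratio of mutant over wild-type pool (x axis) of every tested SLC gene by substrate class (y axis), in A227T (left, 94 genes) and C93F (right, 46 genes). Filled points passed the adjusted p of 0.10, black bars are class medians and dotted lines mark a fold of 1.4; 2 A227T points and 0 C93F points lie beyond the dotted lines.

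Amino acid and peptide carriers were the largest class, with 46 genes, of which 26 were tested in A227T and 14 in C93F. Slc43a2, which encodes a carrier for branched-chain and other large neutral amino acids, had log2 ratios of -0.19, -0.59, -1.06 and -0.39 in the 4 A227T mice. All 4 were below the pool, and mouse 3 lay farthest from it. The mean was -0.56 ± 0.37, a 1.47-fold lower level with an adjusted p of 0.0109. The 2 dye orientations gave array means of -0.26 and -0.86, the first of them short of the fold threshold. Without mouse 3 the mean was -0.39, short of the fold threshold, and with median centring it was -0.46. In C93F the 4 mice lay between -0.19 and -0.08, and the mean of -0.15 ± 0.05 passed the adjusted p alone (0.0411), but not without mouse 3 (0.148) or mouse 4 (0.120).

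Slc15a5, a member of the peptide transporter family, had ratios of -0.58, -0.29, -0.58 and -0.71 in the A227T mice. The values of mice 1, 3 and 4 lay close together and mouse 2 was nearer to 0. The mean was -0.54 ± 0.18 (1.45-fold lower, adjusted p = 0.00204), and without mouse 4 it was -0.48, just short of the fold threshold. The 2 dye orientations of Slc15a5 gave array means of -0.34 and -0.74, the first of them short of that threshold. In C93F its element was too dim to be tested.

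Slc7a10, which encodes an exchanger of small neutral amino acids, was at -0.23 ± 0.08 in A227T (adjusted p = 0.0900). Slc38a3, a glutamine carrier of the basolateral membrane, was at 0.23 ± 0.10 (adjusted p = 0.0976), with mice at 0.08, 0.25, 0.30 and 0.28. Both passed the adjusted p alone and both kept one sign in all 4 mice. Of the other 22 tested genes of the class none passed it. The apical glutamate carrier Slc1a1 was at 0.08 ± 0.10, the cystine carrier subunit Slc3a1 at -0.00 ± 0.15, the heavy chain Slc3a2 at 0.07 ± 0.22 and the basolateral cationic amino acid carrier Slc7a7 at 0.09 ± 0.19. Each of these SDs was larger than the mean.

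In C93F the class held 4 genes below the pool at the adjusted p alone and 0 above it, beside 14.7% and 9.01% of all elements. Slc6a7, known as a proline transporter of the brain, had ratios of -0.27, -0.20, -0.26 and -0.30 and a mean of -0.26 ± 0.04 (adjusted p = 0.00268). Slc6a20b, of the imino acid carriers, was at -0.24 ± 0.08 (mice from -0.31 to -0.13, adjusted p = 0.00581). For both, the 4 mice lay together on one side of 0. The clone of Slc6a20b may also bind transcripts of its near copy Slc6a20a, so the gene is uncertain.

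Slc17a7, known as a vesicular glutamate carrier of neurons, was at -0.29, -0.50, -0.43 and -0.09 in the C93F mice, a mean of -0.33 ± 0.18 (adjusted p = 0.00696). Its element passed the background limit on all 8 C93F arrays but on 0 of 8 A227T arrays. The neutral amino acid exchanger Slc7a8 was at -0.08 ± 0.02 in C93F, below 0 in all 4 mice, and did not pass (adjusted p = 0.179). The highest gene of the class with one sign in every C93F mouse was Slc36a4, an amino acid carrier of the proton-coupled family, at 0.12 ± 0.09, which did not pass either (adjusted p = 0.108). Over the class, 16 of 26 genes were below 0 in A227T and 10 of 14 in C93F, with medians of -0.04 and -0.05.

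Of the 19 sugar and polyol carriers, 8 were tested in A227T and 2 in C93F. Slc2a5, the fructose carrier, was at 0.25, 0.25, 0.19 and 0.18 in the A227T mice, a mean of 0.22 ± 0.04 that passed the adjusted p alone (0.0975). The 4 mice were close to each other, but the arrays of the 2 dye orientations gave 0.65 and -0.22. Its mutant channel was past the background limit on 7 of the 8 arrays and its pool channel on 3, so that it was tested through the channel that was higher, and it was not among the genes tested when both channels had to pass. Slc50a1, a sugar carrier of the SWEET family, was at 0.17 ± 0.05 with one sign in every mouse and an adjusted p of 0.216. Of the glucose carriers of the proximal tubule, Slc5a1 at 0.00 ± 0.03 and Slc2a2 at -0.08 ± 0.09 were near the pool. No element of the array was named for Slc5a2, another of these carriers. Slc5a9, a sodium-linked sugar carrier, was at -0.12 ± 0.16.

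Slc45a3, a member of a family related to sugar carriers, was lower in C93F at the adjusted p alone, with ratios of -0.35, -0.35, -0.32 and -0.24 and a mean of -0.32 ± 0.05 (adjusted p = 0.00101). In A227T it was at -0.17 ± 0.16 (adjusted p = 0.262), below 0 in all 4 mice but with mouse 3 at -0.01. The other sugar carrier tested in C93F was Slc37a4, which moves glucose 6-phosphate into the endoplasmic reticulum. It was at 0.08 ± 0.09 there and at 0.14 ± 0.17 in A227T.

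The inorganic ion class held 29 genes, 14 tested in A227T and 8 in C93F. Slc17a3 and Slc17a1 encode organic anion and urate carriers of the proximal tubule brush border, first named for sodium and phosphate transport. Slc17a3 had ratios of -0.45, -0.50, -0.57 and -0.36 in the C93F mice. Its mean of -0.47 ± 0.09 (1.38-fold lower, adjusted p = 0.000212) was the lowest of all 46 members and lay just short of the fold threshold, which it passed without mouse 4, at -0.50. In A227T the mice were at 0.12, -0.12, 0.28 and 0.29, with mouse 2 alone below 0, and the mean of 0.14 ± 0.19 did not pass (adjusted p = 0.399).

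Slc17a1 had ratios of -0.32, -0.33, -0.35 and -0.31 in C93F. The mean of -0.33 ± 0.02 had the smallest SD of the 15 lower genes (adjusted p = 0.000673). The 2 dye orientations differed far more than the mice, with array means of -0.67 and 0.02. In A227T it was at -0.04 ± 0.11, with mice on both sides of 0.

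Slc9a3r2, which encodes a scaffold protein of the apical membrane and not a carrier, was lower in A227T at the adjusted p alone. The mice were at -0.40, -0.23, -0.58 and -0.66, all below the pool, and the mean was -0.47 ± 0.19 (1.38-fold lower, adjusted p = 0.00579). Without mouse 1 or mouse 2 the mean passed the fold threshold, at -0.49 and -0.55, and so it did with local background subtraction, at -0.52, and with print-tip loess, at -0.50. In C93F the mice were at -0.00, -0.08, 0.09 and 0.31, a mean of 0.08 ± 0.17.

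The brush border phosphate carrier Slc34a3 was at -0.18 ± 0.12 in A227T, below 0 in all 4 mice (adjusted p = 0.204). Slc26a4, an anion exchanger of the collecting duct and connecting tubule, was at 0.06 ± 0.06 with one sign in every mouse (adjusted p = 0.675). Slc9a9, a sodium/proton exchanger of endosomes, was the single member above the pool at the adjusted p alone in C93F, at 0.14 ± 0.08 (adjusted p = 0.0727, and 0.124 to 0.226 without mouse 2, 3 or 4). Its 4 mice ran from 0.06 to 0.25, but the dye orientations gave -0.29 and 0.56. In A227T another element of Slc9a9 was brightest, at -0.10 ± 0.03. Its dye orientations gave -0.80 and 0.60, and each of its channels was past the background limit on only 3 arrays.

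Of 14 carriers of organic acids, cations and bile acids, 7 were tested in each line. In C93F 3 were lower at the adjusted p alone, beside 14.7% of all elements. Slc22a2, the basolateral organic cation carrier of the proximal tubule, had ratios of -0.41, -0.53, -0.26 and -0.36. All mice lay well below the pool, with a mean of -0.39 ± 0.11 (1.31-fold lower, adjusted p = 0.00082), and both dye orientations gave the same level, -0.40 and -0.38. In A227T its element passed the limit on 2 of 8 arrays and was not tested.

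Slc16a9, of the monocarboxylate carrier family, was at -0.24 ± 0.07 in C93F (mice from -0.33 to -0.16, adjusted p = 0.00539) and at -0.04 ± 0.11 in A227T. Slc22a12, the urate exchanger of the brush border, was at -0.12 ± 0.02 in C93F (adjusted p = 0.0709), which no longer passed when any 1 of the 4 mice was left out, with adjusted p from 0.125 to 0.170. In A227T its mice were at -0.41, -0.07, -0.18 and -0.11, all below 0 with mouse 1 farthest, and the mean of -0.19 ± 0.15 did not pass (adjusted p = 0.190). Slc22a18 and Slc22a13, of the same family, were at -0.05 ± 0.02 and 0.10 ± 0.13 in C93F.

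Among the carriers of nucleosides, vitamins, lipids and other solutes, 11 of 20 were tested in A227T and 6 in C93F. Slc27a2, which takes up and activates very long-chain fatty acids, had ratios of -0.24, -0.29, -0.39 and -0.51 in C93F. Every mouse was below the pool, mouse 4 the most, and the mean was -0.36 ± 0.12 (1.28-fold lower, adjusted p = 0.00158). It was -0.16 with print-tip loess (adjusted p = 0.0352) and -0.16 with the authors' processed ratios (adjusted p = 0.566). In A227T its element passed on 5 of 8 arrays and was not tested. Slc44a4, of the choline carrier-like family, was at -0.14 ± 0.09 in C93F (adjusted p = 0.0706, and 0.213 without mouse 2) and at -0.11 ± 0.12 in A227T (adjusted p = 0.479), below 0 in every mouse of both lines. Slc49a4 and Slc66a2 were above 0 in every C93F mouse, at 0.10 ± 0.07 and 0.06 ± 0.03, and did not pass. The urea carrier Slc14a2 was at 0.01 ± 0.12 in A227T.

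The mitochondrial Slc25 family held 22 genes, 14 tested in A227T and 5 in C93F. In A227T none passed the adjusted p, 7 were above and 7 below 0, and the median was -0.01. Slc25a48, a carrier of the family, was lowest at -0.22 ± 0.08 (adjusted p = 0.102), below 0 in all 4 mice. Slc25a30 and the oxoglutarate carrier Slc25a11 were above 0 in every mouse, at 0.10 ± 0.06 and 0.08 ± 0.07. The adenine nucleotide exchanger Slc25a5 was at 0.04 ± 0.08 and the dicarboxylate carrier Slc25a10 at -0.08 ± 0.11.

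In C93F, 3 of the 5 tested Slc25 genes were lower at the adjusted p alone, beside 14.7% of all elements. Slc25a39, a carrier linked to mitochondrial glutathione, was at -0.31, -0.21, -0.25 and -0.15, a mean of -0.23 ± 0.07 (adjusted p = 0.00661). Slc25a16, linked to coenzyme A, was at -0.21 ± 0.15 (adjusted p = 0.0337), with mouse 3 near 0 at -0.01, and did not pass without mouse 2 (0.134) or mouse 4 (0.133). The citrate carrier Slc25a1 was at -0.16 ± 0.10 (adjusted p = 0.0504), with mouse 2 near 0 at -0.02. The mitochondrial phosphate carrier Slc25a3 was at 0.04 ± 0.27, with mouse 1 at 0.43 and the other mice between -0.16 and 0.02.

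The 15 metal carriers, 10 tested in A227T and 4 in C93F, gave no gene past the adjusted p in either line. Their medians were 0.07 and 0.01. The copper carrier Slc31a1 was at 0.07 ± 0.10 in A227T and the zinc carrier Slc30a6 at -0.15 ± 0.17. Slc39a14, a carrier of zinc and iron, was above 0 in every C93F mouse, at 0.06 ± 0.07. Of 5 nucleotide sugar carriers of the Slc35 family, 4 were tested in A227T and 0 in C93F. Slc35a1, which carries CMP-sialic acid, was at 0.17 ± 0.09, above 0 in all 4 mice with mouse 2 at 0.31, and did not pass (adjusted p = 0.223).

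**Figure D2:**
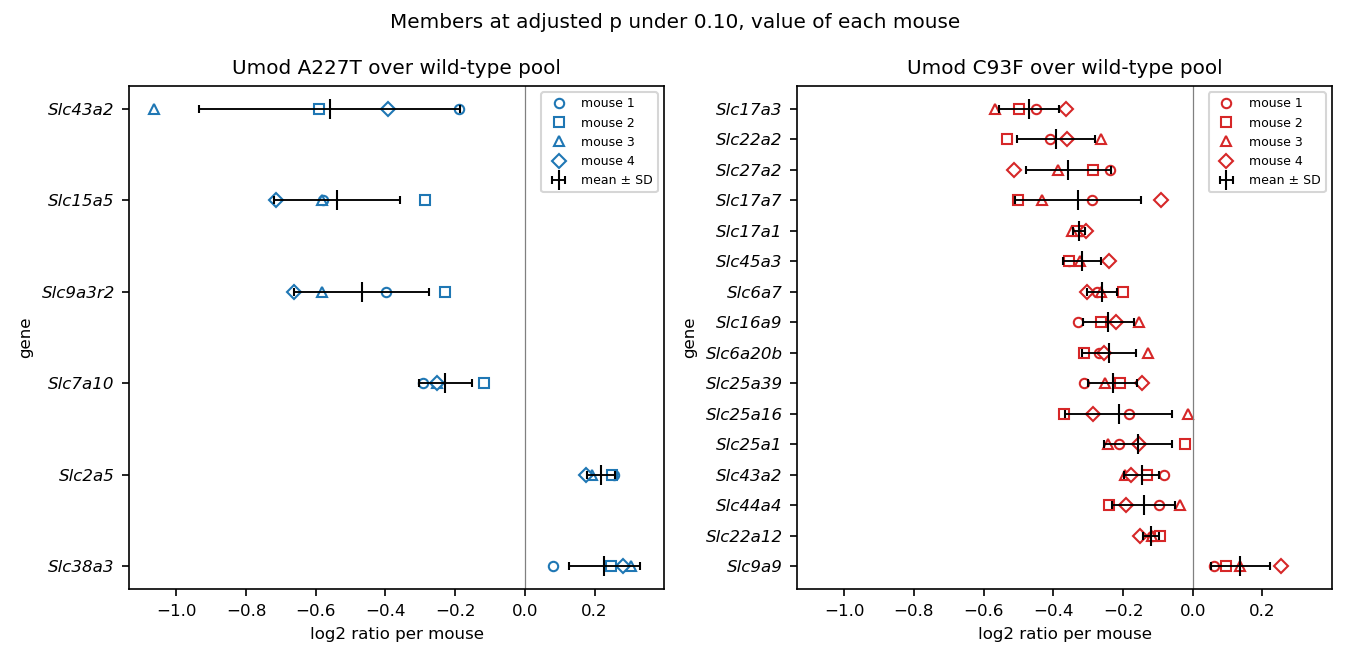
Log2 ratio of mutant over wild-type pool (x axis) in each mouse for the SLC genes at an adjusted p under 0.10 (y axis), 6 in A227T (left) and 16 in C93F (right), with the mean and SD of 4 mice. No mouse of any of these genes lies on the other side of 0 from its mean, which the choice by adjusted p makes likely. Mouse 3 of Slc43a2 lies farthest, at -1.06.

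Of the 15 genes lower in C93F, 11 were also tested in A227T. Of these 11, 1 was lower in A227T too (Slc43a2), and 10 had a mean below 0, from -0.56 upward, with Slc17a3 at 0.14. Over all 415 elements lower in C93F at the adjusted p and tested in A227T, 12.3% were lower in A227T too and 57.6% lay below 0. The 4 without an A227T value were Slc17a7, Slc22a2, Slc27a2 and Slc25a1. Whether the lines differ was tested on the 30 SLC genes with an element that passed in both. The difference, C93F minus A227T, passed an adjusted p of 0.10 for 7 genes, 4 lower and 3 higher in C93F. Among all 2168 shared elements it passed for 28.4%, 16.2% lower and 12.2% higher, so that the 30 members had no larger share than the elements as a whole.

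Slc17a3 had the largest difference of the 30, -0.61 (95% interval -0.82 to -0.40, adjusted p = 0.000534), with all 4 C93F mice below all 4 A227T mice. Slc17a1 differed by -0.29 (adjusted p = 0.0213), Slc38a10, of the amino acid carriers, by -0.29 (adjusted p = 0.0544) and Slc16a9 by -0.21 (adjusted p = 0.0962). The Slc38a10 value rested on 1 mouse of each line. Its mean was 0.17 ± 0.14 in A227T and -0.11 ± 0.18 in C93F, where mouse 2 stood at -0.38. Without it the difference was -0.20 (adjusted p = 0.193), and without A227T mouse 1 it was -0.22 (adjusted p = 0.146). The 2 dye orientations of Slc38a10 in A227T had opposite signs, with array means of 0.58 and -0.24.

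In the other direction, Slc9a3r2 differed by 0.55 (95% interval 0.32 to 0.78, adjusted p = 0.00212), again without overlap of the mice of the 2 lines. Slc43a2 differed by 0.41 (adjusted p = 0.0407) and Slc22a17, a receptor for lipocalin, by 0.25 (adjusted p = 0.0598). The Slc22a17 test used the element that passed in both lines, at -0.17 in A227T, whereas its brightest A227T element was at 0.08. For Slc43a2 the ranges of the mice overlapped only through A227T mouse 1, at -0.19, and without A227T mouse 3 the difference was 0.25 (adjusted p = 0.0884). Leaving out 1 mouse ended the Slc16a9 call in 7 of 8 cases and the Slc22a17 call in 5 of 8. For Slc22a13, Slc4a8 and Slc6a9 the differences were -0.01, 0.02 and 0.01, with 95% intervals of -0.21 to 0.19, -0.17 to 0.20 and -0.17 to 0.19. The pools and ages of the lines differ, so a difference between lines cannot be told apart from those.

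**Figure D3:**
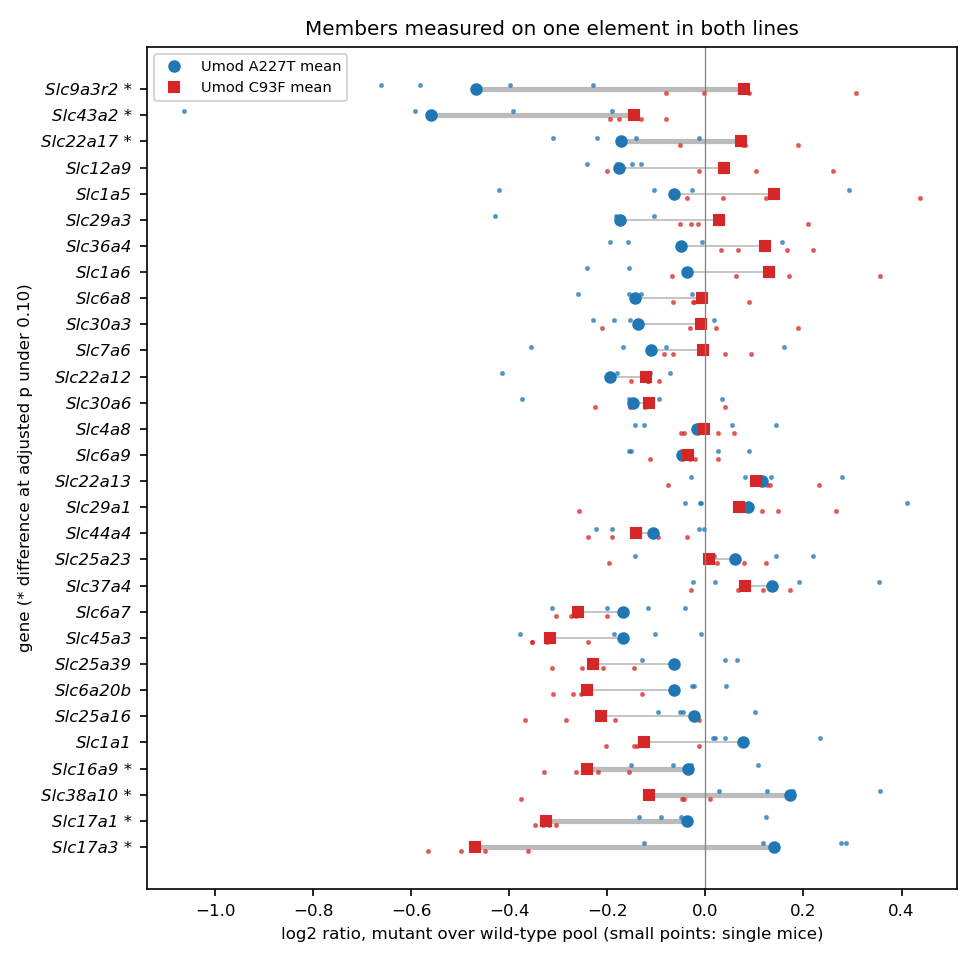
Log2 ratio of mutant over wild-type pool (x axis) of the 30 SLC genes measured on one element in both lines (y axis), with means as large symbols and single mice as small points. Thick bars and asterisks mark the 7 genes whose difference passed an adjusted p of 0.10; Slc9a3r2 and Slc17a3 stand at the 2 ends, at 0.55 and -0.61.

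Turned to the same direction, the dye-exchanged arrays of one mouse correlated across elements with r between -0.18 and 0.04 in A227T and between -0.33 and -0.14 in C93F, as a description over elements. A difference between dyes cancels in the mean of both arrays only where it has the same size on each, which was not tested. Of the 6 members past the adjusted p in A227T, 5 had the same sign in both orientations, Slc2a5 being the exception. In C93F it was 12 of 16, all of them among the lower genes, with Slc17a1, Slc25a1, Slc44a4 and Slc9a9 as exceptions. Over all elements past the adjusted p, the same sign was found in 91.5% in A227T and 61.7% in C93F. Over all tested elements, whatever their p, it was found in only 42.8% in A227T and 29.8% in C93F. Among the tested members it was found in 43 of 94 and 17 of 46.

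**Figure D4:**
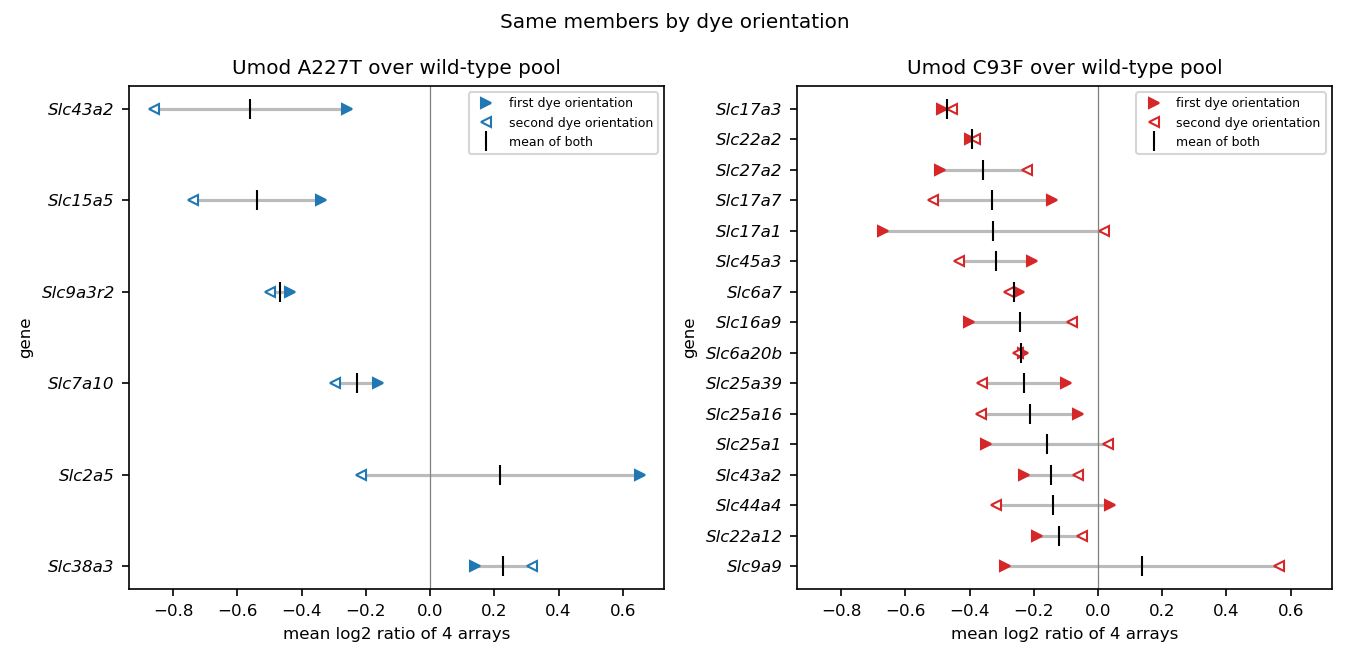
Mean log2 ratio of the 4 arrays of each dye orientation (x axis) for the SLC genes at an adjusted p under 0.10 (y axis), in A227T (left) and C93F (right), with the mean of both as a black tick. Slc17a3, Slc22a2, Slc6a7 and Slc6a20b in C93F and Slc9a3r2 in A227T had nearly equal values in both orientations, while Slc17a1 was at -0.67 and 0.02.

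In A227T, 13 members had 2 tested elements, and these differed by a median of 0.09. The largest gap was that of Slc27a4, a fatty acid carrier, at -0.24 and 0.20, followed by Slc22a17 at -0.17 and 0.08 and Slc31a1 at -0.11 and 0.07. None of these elements passed the adjusted p. The elements of Slc29a1, a nucleoside carrier, were at -0.02 and 0.09, and those of Slc4a1ap at -0.08 and 0.02. Slc30a6 had both below 0, at -0.15 and -0.04. In C93F only Slc1a1 had 2 tested elements, at -0.13 and -0.06, and the dimmer of them passed the adjusted p alone (0.0906).

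Other transport proteins of the tubule were counted beside the SLC genes from a list of channels, pumps, endocytic receptors and organic anion transporters of another family. In A227T 0 of 17 tested genes (of 23 on the array) were called, beside 1.8% of all elements. At the adjusted p alone 2 were lower and 2 higher, beside 4.53% and 6.23% of all elements. In C93F 1 of 11 was called, beside 1% of all elements, the organic anion carrier Slco1a6 at -1.15 ± 0.07 (adjusted p = 3.76e-07). At the adjusted p alone 0 were higher, beside 9.01% of all elements, and 6, Slco1a6 included, were lower, beside 14.7%. Among them were Pdzk1, a scaffold of brush border carriers, at -0.41 ± 0.05, and Dab2, an adaptor of endocytosis, at -0.36 ± 0.08. The medians of the list were -0.05 and -0.14.

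Markers of cell types were measured in the same samples, and Umod itself was at -0.07 ± 0.09 in A227T and at -0.32 ± 0.13 in C93F (adjusted p = 0.658 and 0.00318). Of 8 genes of the kidney epithelium 6 were tested in each line. In C93F 5 of the 6 were lower at the adjusted p alone, beside 14.7% of all elements. They included Slc34a1 at -0.64 ± 0.05 and Slc22a6 at -0.53 ± 0.06, SLC genes left out of the members, and Umod. The others were Miox at -0.25 ± 0.10 and Aqp1 at -0.14 ± 0.07, while Aqp2, at 0.03 ± 0.14, did not pass. The summed log2 ratio of the 6 genes ran from -2.08 to -1.72 over the mice, against -0.52 to 0.64 in A227T. Leukocyte markers summed to -0.10 to 0.15 in C93F (3 of 10 tested, 0 at the adjusted p) and to 0.63 to 1.10 in A227T (5 of 10 tested, 3 higher at the adjusted p alone). Adipocyte markers summed to 0.55 to 2.20 in A227T, where 5 of 8 were tested and Fabp4, Car3 and Ucp1 were called higher while Pparg, at -0.46 ± 0.24, was lower at the adjusted p alone (0.00963). In C93F 2 were tested and summed to -0.40 to -0.22. Of these Lpl, at -0.39 ± 0.10, was lower at the adjusted p alone (0.000673) and Car3, at 0.10 ± 0.14, did not pass. The 3 blood markers summed to -1.55 to -0.60 in A227T, where Hba-a1 was called lower at -0.80 ± 0.26 and Alas2 and Ank1 did not pass, at -0.10 ± 0.21 and 0.01 ± 0.03. They summed to -0.84 to -0.41 in C93F. There Hba-a1, on another element, at -0.34 ± 0.15 and Ank1 at -0.35 ± 0.06 were lower at the adjusted p alone (0.00374 and 0.000673). The part of these shifts in the ratios of the SLC genes was not tested.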

How the data were processed

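Kidney RNA of 8 mutant mice was measured on 16 two-colour arrays, 2 per mouse with exchanged dyes, each against the wild-type pool of its line. The deposited scans give each spot's foreground intensity and that of its surround, not normalized by the authors. The authors also deposited log2 ratios per mouse, whose centring and direction are not stated; they helped to set the sign, and served as an alternative. For C93F, the authors' columns of mice 1 and 2 matched each other's scans. No column was left unassigned (0).

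Intensities were processed with R 4.3.3 and limma 3.58.1: normexp with an offset of 50, loess within arrays with no weight for spots marked as not found (which cannot pass the filter), signs turned, spots of one clone and then both arrays of a mouse averaged. Spots were joined by position, and 217 positions with another clone name in the C93F scans (Slc6a19 and Slc6a2 among them) were left out of that line. All elements that passed in a line entered its lmFit and eBayes test against 0, and the lines against each other over 8 mice. Gene symbols came from the platform annotation, promoters from RefSeq. Precision is limited by the number of mice, 4 per line, and by the single wild-type pool of each line. The steps were tested on simulated data: known folds put into the mutant channel, and drawn normal ratios without a dye or pool offset. They do not measure such offsets.

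Named genes were called members, the 2 highest and 2 lowest of each class with one sign in all 4 mice, differences between lines, members whose elements disagreed most and a list of kidney transporters; others were named after their values were seen. Members, classes and lists were chosen with earlier results of these data known. Alternatives covered background correction, normalization, filters, thresholds, one value per gene, the authors' ratios, models of the arrays and leaving out each mouse. The SAM test of the study was replaced by limma and not run, and slide or scan batches could not be blocked since no such entry was found in the scans used here.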

Additional observations from a re-analysis of the deposited data

Results flagged for a closer look

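Among 68 ratios of named SLC genes, 5 had 1 mouse that stood apart from the other 3 by Dixon's test at the 95% level, which chance does in about 1 in 20 groups. In A227T, Slc29a1 was at 0.41 in mouse 3 with the other mice between -0.04 and -0.01, Slc35a1 at 0.31 in mouse 2 with the others between 0.11 and 0.13, and Slc1a1 at 0.23 in mouse 2 with the others between 0.02 and 0.04. In C93F, Slc38a10 was at -0.38 in mouse 2 with the others between -0.05 and 0.01, and Slc39a14 at 0.17 in mouse 4 with the others between 0.02 and 0.03.

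The ratio of 7 genes, Slc38a10 again among them, differed between the lines in the limma test of the difference. Slc9a3r2 differed by 0.55, Slc43a2 by 0.41 and Slc22a17 by 0.25, with C93F higher. Slc17a3 differed by -0.61, Slc17a1 by -0.29, Slc38a10 by -0.29 and Slc16a9 by -0.21, with C93F lower. What in the design (mutation, zygosity, age, pool or hybridisation series) these go with cannot be told apart.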

How the results depend on the processing

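No named gene changed its sign past a threshold under any alternative run. In A227T the count of called lower genes (2) was 1 with median centring and 1 to 3 on leaving out 1 mouse (1 without mouse 3 or mouse 4). Without the fold threshold it was 4, and 2 genes were then higher. At the adjusted p alone, the 4 lower genes became 8 with the authors' ratios and 7 with both lines in one fit. The 2 higher genes became 9 with median centring, 6 with the authors' ratios, 5 with both lines in one fit, 0 with no filter on dim spots and 1 with each of no background correction, local background subtraction, scaling between arrays, both channels past the limit, the dye-swap filter and the mouse as a random block. Leaving out 1 mouse gave 0 to 1 higher genes. The authors' ratios held 4904 tested A227T elements and the run with no filter 20749, in place of 9211, so their counts are not like shares.

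In C93F the count of called lower genes (0) was 1 with local background subtraction, 1 with scaling between arrays, 2 with median centring, 15 without the fold threshold and 0 to 1 on leaving out 1 mouse, where Slc17a3 passed without mouse 4. The called higher count (0) was 1 without the fold threshold. The 15 genes lower at the adjusted p alone became 12 to 13 on leaving out 1 mouse. They became 8 with no filter on dim spots (20532 elements tested) and 0 with the authors' ratios (17779 elements tested). These 2 settings tested far more elements than the main run (3287), so their counts do not compare with 15 as shares. The single higher gene became 3 with print-tip loess, 2 with local background subtraction or median centring and 0 with both channels past the limit, no filter, the authors' ratios, the mouse as a random block or both lines in one fit, and 0 to 2 on leaving out 1 mouse (2 without mouse 1 or mouse 3, 0 without mouse 4). With the authors' ratios Slc17a3 stood at -0.50 and Slc22a2 at -0.38 with adjusted p of 0.344 and 0.427, and Slc27a2 at -0.16 (0.566).

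For the difference between lines, the 4 lower genes became 9 with median centring and 2 to 5 on leaving out 1 mouse (2 without A227T mouse 1 or C93F mouse 2), and the 3 higher genes became 2 to 5 (5 without A227T mouse 4). Mice with the same number in the 2 lines did not deviate together (r between -0.06 and -0.00 across elements), so the numbers do not pair them. With the replicate number as a block, 3 genes were lower and 3 higher, Slc16a9 no longer passed (adjusted p = 0.136), and 594 elements passed in place of 616. Over all A227T elements, calls were 73 higher and 93 lower, but 141 and 59 with median centring, 158 and 134 with local background subtraction, 46 and 70 with scaling between arrays and 139 and 106 with the authors' ratios. Over all C93F elements they were 1 higher and 32 lower, but 1 and 20 with no background correction, 6 and 65 with local background subtraction, 3 and 39 with scaling, 0 and 26 with both channels past the limit, 1 and 8 with the authors' ratios, 2 and 35 without mouse 1, 3 and 31 without mouse 3 and 2 and 34 without mouse 4. Allowing spots marked as not found to pass was added after the data were seen and changed none of the member counts. The SAM test and a block for slide or scan were not run. The dim C93F arrays limited that line to 46 genes. The cause of these shifts was not tested.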
